A study of Mus musculus with 6 samples.

Results

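Amino acid and peptide transporter genes were followed in HT22 cells, an immortalized line of mouse hippocampal neurons. The group was taken as every row of the deposited count table whose symbol begins with Slc1a, Slc3a, Slc6a, Slc7a, Slc15a, Slc36a, Slc38a or Slc43a and a number, without Slc7a11. It held 48 of the 29493 genes in the table. The rule used the symbol and no measured value. The study had 6 libraries of 1 stably transfected line, HT22-TR/TO-V5Klf13-1, which carries a V5-tagged Klf13 gene held under the tet repressor. In 3 libraries the cells had received doxycycline (Dox) at 1 µg/ml for 8 hours and in 3 they had received vehicle, and both groups carry the transgene. The series title places the study on the actions of KLF13, a Krüppel-like DNA-binding regulator of transcription, in neurons of the hippocampus. No library had Dox without the transgene, so effects of KLF13 and of the drug cannot be told apart. Whether the replicates came from separate cultures is not stated, and the tests therefore weigh a change against a spread that may be only technical.

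These families move amino acids, short peptides and related compounds across the plasma membrane and the membranes of lysosomes. The carriers of the Slc1 family include the sodium-coupled glutamate transporters, which clear the transmitter at synapses, and exchangers of small neutral amino acids. The Slc38 carriers bring in glutamine and alanine with sodium, and the large neutral carrier LAT1, encoded by Slc7a5, trades such amino acids for leucine and other essential ones as a pair with the heavy chain 4F2hc, encoded by Slc3a2. Slc15 carriers take up di- and tripeptides with protons. The label covers most but not all of the 48 genes. Slc7a6os is named only for lying opposite Slc7a6 and encodes a protein related to a nuclear import factor of RNA polymerase II. Slc43a3 carries purine nucleobases, and several Slc6 genes carry creatine, taurine or neurotransmitters.

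Promoter sequences are shown first for 6 members, since their letters can be set beside the response. They are the gene that rose most among members of at least 1 CPM (read counts relative to library size), 1 of the genes that fell most, a pair of Slc1 genes that rose together, and a pair of neighbouring Slc38 genes that moved in opposite directions. The pairs were chosen after their values were seen. Each is the most upstream promoter that RefSeq gives on GRCm38.p6, from 250 bases before the start to 50 after it, 5′ to 3′ on the gene's own strand. Capitals mark GGGCGG, the GC box that Krüppel-like and SP factors are known to bind, and the looser word CCNCNCCC, each on either strand. A GC box with the right neighbours is also a match of the looser word, so the marks can overlap.
Slc15a2: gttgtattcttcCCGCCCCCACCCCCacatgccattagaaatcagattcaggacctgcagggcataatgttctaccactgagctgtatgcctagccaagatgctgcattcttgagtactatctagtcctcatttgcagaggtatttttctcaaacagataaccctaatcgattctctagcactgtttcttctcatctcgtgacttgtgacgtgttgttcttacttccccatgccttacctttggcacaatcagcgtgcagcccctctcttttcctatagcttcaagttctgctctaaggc
Slc6a9: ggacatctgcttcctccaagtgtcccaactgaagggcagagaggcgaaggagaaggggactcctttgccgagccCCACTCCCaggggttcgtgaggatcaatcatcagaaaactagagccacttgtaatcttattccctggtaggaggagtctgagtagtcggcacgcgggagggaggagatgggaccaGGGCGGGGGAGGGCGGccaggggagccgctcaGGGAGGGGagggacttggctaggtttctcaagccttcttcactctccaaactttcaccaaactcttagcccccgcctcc
Slc1a1: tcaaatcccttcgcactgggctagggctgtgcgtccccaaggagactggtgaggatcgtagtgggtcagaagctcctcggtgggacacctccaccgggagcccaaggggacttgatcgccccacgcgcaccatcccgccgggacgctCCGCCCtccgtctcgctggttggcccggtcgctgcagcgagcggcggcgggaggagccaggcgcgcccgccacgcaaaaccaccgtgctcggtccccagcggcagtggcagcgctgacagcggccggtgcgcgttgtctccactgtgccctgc
Slc1a4: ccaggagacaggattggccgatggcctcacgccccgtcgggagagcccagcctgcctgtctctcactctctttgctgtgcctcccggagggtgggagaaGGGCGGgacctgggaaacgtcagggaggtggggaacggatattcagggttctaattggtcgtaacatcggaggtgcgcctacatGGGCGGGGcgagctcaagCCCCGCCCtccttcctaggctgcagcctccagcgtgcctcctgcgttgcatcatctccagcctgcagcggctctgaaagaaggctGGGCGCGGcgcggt
Slc38a2: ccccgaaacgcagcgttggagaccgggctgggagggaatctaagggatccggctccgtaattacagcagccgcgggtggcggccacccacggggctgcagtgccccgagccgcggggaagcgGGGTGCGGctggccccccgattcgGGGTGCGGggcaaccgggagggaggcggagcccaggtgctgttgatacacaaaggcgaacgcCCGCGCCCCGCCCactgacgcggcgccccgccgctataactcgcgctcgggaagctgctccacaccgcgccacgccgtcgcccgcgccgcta
Slc38a4: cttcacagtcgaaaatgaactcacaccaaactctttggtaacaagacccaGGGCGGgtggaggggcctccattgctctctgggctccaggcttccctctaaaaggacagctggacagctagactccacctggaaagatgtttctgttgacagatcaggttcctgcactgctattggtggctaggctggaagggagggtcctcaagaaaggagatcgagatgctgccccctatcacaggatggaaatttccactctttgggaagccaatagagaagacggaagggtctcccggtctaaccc
These windows are chr16:36784913-36785212 (minus strand) for Slc15a2, chr4:117835008-117835307 (plus) for Slc6a9, chr19:28834885-28835184 (plus) for Slc1a1 and chr11:20332664-20332963 (minus) for Slc1a4. The neighbours on chromosome 15 are chr15:96699679-96699978 for Slc38a2 and chr15:97055907-97056206 for Slc38a4, both minus. Each of the 6 windows held at least 1 GC box, 3 of them in Slc1a4 and 2 in Slc6a9. In Slc15a2 the only one lay 238 bases before the start, in Slc1a1 103 and in Slc38a4 200, whereas in Slc38a2 it lay 35 bases before it. RefSeq gives 3 promoters each for Slc6a9 and Slc38a4. Both later windows of Slc6a9 held 0 GC boxes, and those of Slc38a4 held 1 and 0. Which start these cells use was not tested. A promoter was found for 35 of the 48 members. Of 21 tested members with one, 18 held a GC box in the most upstream window, compared with 62.5% of the 10219 tested genes that have a promoter and 35.7% of all 32851 promoters. The looser word was in 16 of the 21, compared with 66.9% of tested genes and 49.5% of all promoters. These backgrounds were not matched to the members for level. Of 14 members too low to test that have a promoter, 6 held a GC box. By direction, among members with a promoter, 9 of 10 that rose, 3 of 3 that fell and 6 of 8 that did not pass the test held a GC box. Of the 6 members that fell, Slc7a3, Slc43a3 and Slc7a5 had no promoter to search. Among the members searched, the word was common whichever way a gene moved.

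Libraries held 38566798 to 52930384 counts. Klf13, the induced gene, had 36.1 to 39.1 CPM in the vehicle libraries and 183.6 to 204.6 CPM in the Dox libraries. Markers of neurons were thin and fell: 6 of 11 were in the table, all 4 that could be tested fell, and their summed level went from 95.4 to 96.6 CPM with vehicle to 32.0 to 33.1 CPM with Dox. The neuronal markers Rbfox3, Snap25, Nefl, Nefm and Gad1 are not analysed here. Fibroblast markers, all 11 in the table, summed to 12643 to 13366 CPM with vehicle and 10082 to 10667 CPM with Dox, and 8 of 10 tested fell. Over all genes tested for a change with Dox, 28.8% fell and 54.7% were called in either direction. Among genes with a mean of at least 5 CPM, 70.9% were called. Of the astrocyte markers none could be tested, and S100b, Aldh1l1, Gjb6 and Slc1a2 were under 0.1 CPM. Markers of oligodendrocytes, microglia, endothelium and epithelium each summed to at most 8.02 CPM in any library. The part of these markers in the results below was not tested. In bulk RNA, fewer cells of a kind and less RNA per cell cannot be told apart.

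Of the 48 members, 28 were expressed, in the sense that they passed the filter on low counts, and 20 were not. Of the 28, 10 had a mean over the 6 libraries of more than 100 CPM, 12 had 10 to 100, 4 had 1 to 10 and 2 had 0.1 to 1. The 20 others never exceeded 8 counts in a library or 21 counts over all 6, where 3 counts correspond to 0.0579 to 0.0795 CPM. They include most of the Slc6 family, 11 of 14, among them Slc6a11 and Slc6a12 and the carriers of noradrenaline (Slc6a2), serotonin (Slc6a4), proline (Slc6a7) and the inhibitory transmitter glycine (Slc6a5), with Slc6a14, Slc6a17, Slc6a20a and Slc6a20b. Also too low were the astrocytic glutamate carrier Slc1a2 and the retinal one Slc1a7, Slc38a8, the arginine carrier Slc7a2, Slc7a13, Slc7a15, and the peptide carriers Slc15a1, Slc15a3 and Slc15a5. These limits are stated in counts, and the spread of these members between libraries was not tested. All 28 expressed members but Slc43a1 and Slc7a7 passed the count minimum in all 3 libraries of both groups.

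Levels of different genes were compared per length, as CPM divided by the longest transcript's length in kilobases (RPKM). Slc7a5 stood highest with 211.4 ± 1.14 RPKM in the vehicle libraries (mean ± SD, n = 3), followed by its partner Slc3a2 with 161.7 ± 3.06. Slc1a5, which encodes the glutamine exchanger ASCT2, had 92.5 ± 0.752 and Slc38a2, the glutamine and alanine carrier SNAT2, 92.4 ± 2.32 RPKM, a gap smaller than the spread between replicates. Slc7a6os came next with 53.5 ± 2.14. Slc7a5, Slc3a2, Slc1a5 and Slc38a2 together with Slc38a4 made up 65.7% of the summed RPKM of the tested members with vehicle and 65.9% with Dox. The order depends on which transcript is expressed: over all annotated exons Slc7a6os had 15.8 RPKM, Slc38a2 48.7 and Slc1a5 61.3. At the other end lay Slc43a1, Slc7a7 and Slc43a2, with 0.105, 0.116 and 0.118 RPKM.

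**Figure D1:**
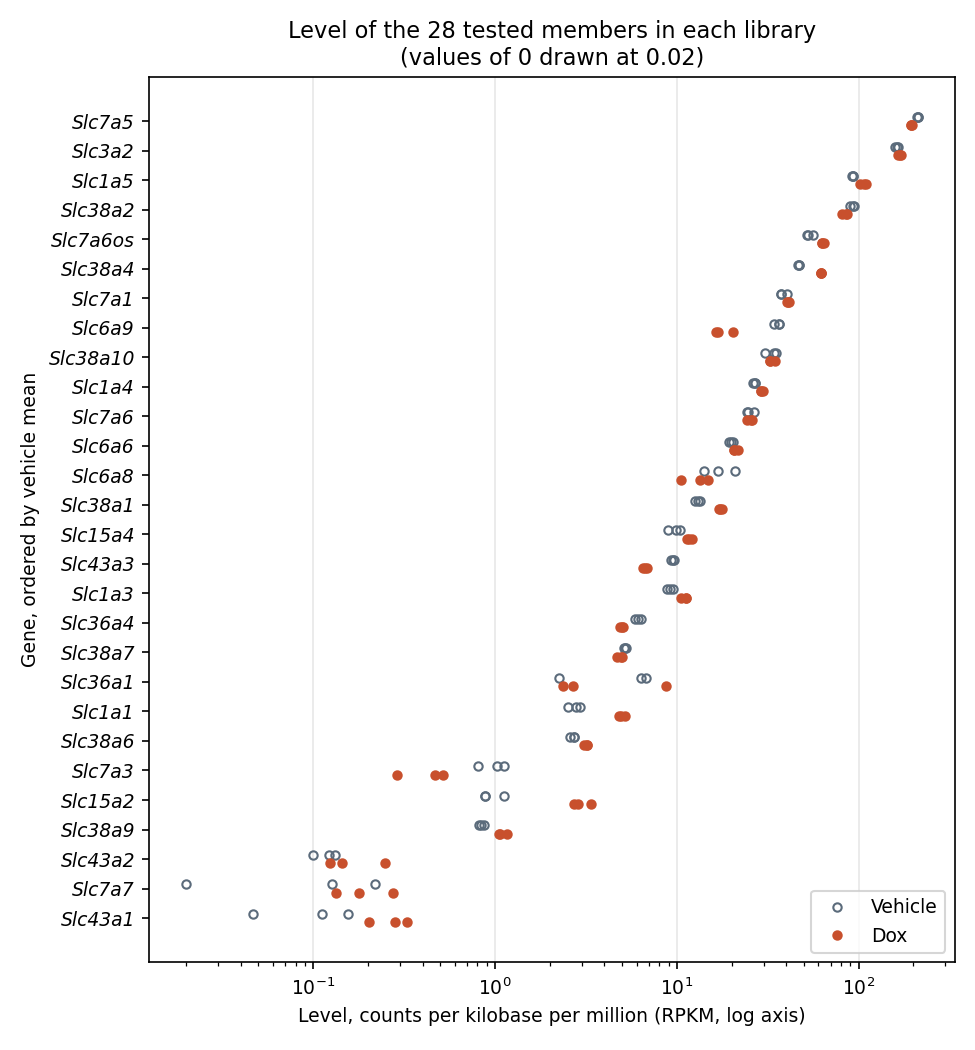
Level of each of the 28 tested members in each library, in RPKM on a log axis, with vehicle libraries as open grey and Dox libraries as filled red circles, ordered by the vehicle mean; the 1 value of 0, for Slc7a7, is drawn at the left edge. Members span from 0.105 RPKM for Slc43a1 to 211.4 RPKM for Slc7a5, and most shifts with Dox are small beside that span.

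Dox was compared with vehicle for all 18067 genes passing the filter, by edgeR's quasi-likelihood test with Benjamini-Hochberg adjustment over all of them. Of the 28 members tested, 12 rose, 6 fell and 10 did not pass at an adjusted p under 0.05. Together 64.3% of tested members were called, beside 54.7% of all tested genes, of which 25.9% rose and 28.8% fell. Since calls become more frequent with level, the closer background is that of genes with a mean of at least 5 CPM, of which 70.9% were called. In that fit 19 of 24 members were. The share of members called was above both backgrounds by about the same margin, and that gap was not tested. The median log2 fold change of the members was 0.117, beside 0.0178 over all tested genes. Most changes were small: 2 members rose and 1 fell by at least 2-fold, with Slc6a9 just under that size (9.25% of all tested genes were called with such a change), and the median size of a called change was 0.336 on the log2 scale, beside 0.491 over all called genes. When a change of more than 1.2-fold was required (glmTreat), 4 members passed as higher and 3 as lower, with 33.4% of all genes called. Upper-quartile scaling gave 15 members higher and 4 lower, while over all genes (59.2% called) it gave 6246 higher and 4457 lower in place of 4687 and 5203.

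The Dox and vehicle libraries did not overlap in CPM for 22 of the 28 members, 15 higher and 7 lower, beside 64% of all tested genes (31.8% higher, 32.2% lower). In the authors' deposited table of the same comparison, made from the same libraries, 16 members were called, 10 higher and 6 lower, beside 40.3% of the genes given an adjusted p. The authors' deposited table did not call Slc38a6 and Slc43a1 (its adjusted p = 0.021 and 0.035), which edgeR's test called here. In the authors' deposited table the highest adjusted p called was 0.00999 and the lowest not called 0.0101, a stricter threshold than the 0.05 used here.

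**Figure D2:**
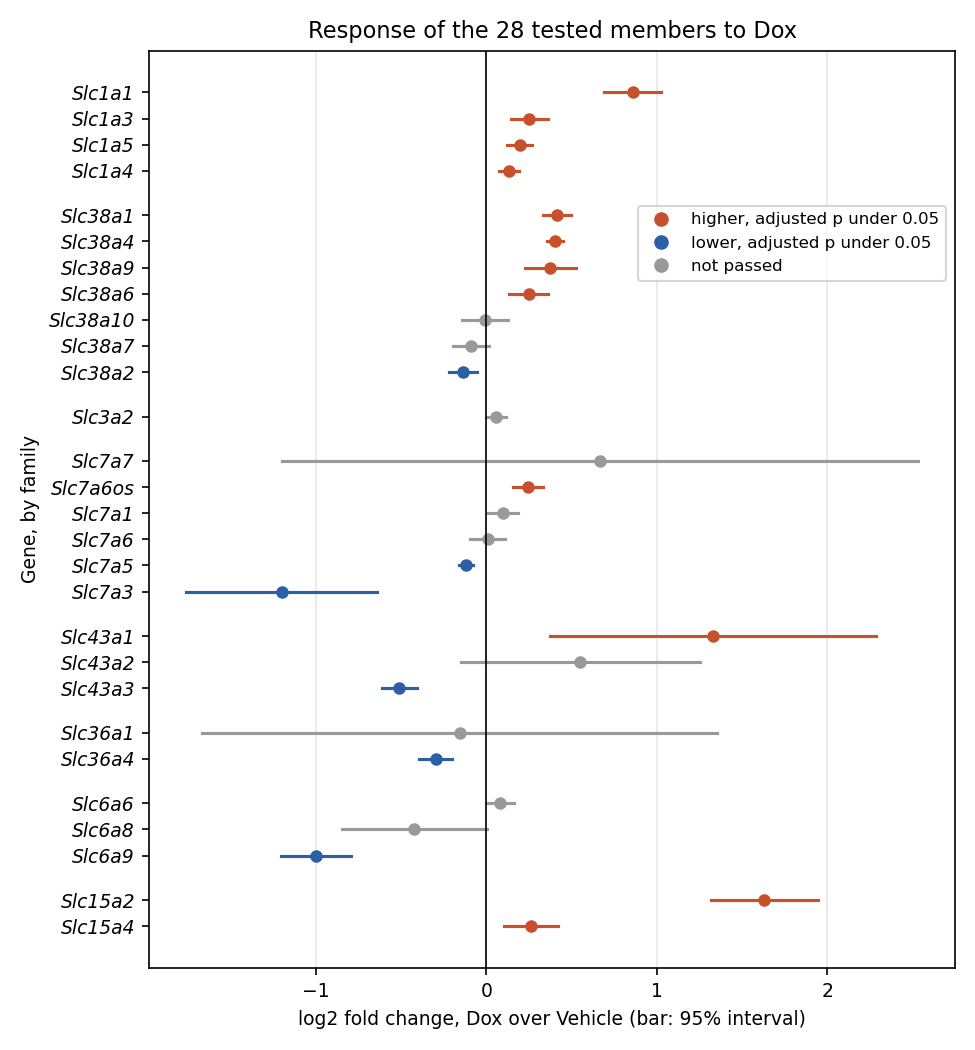
Log2 fold change of each tested member, Dox over vehicle, with its 95% interval, grouped by family and coloured by the call at an adjusted p under 0.05. All 4 tested Slc1 genes and both tested Slc15 genes lie to the right of 0, Slc6a9 and Slc7a3 lie farthest to the left, and Slc36a1 and Slc7a7 have the widest intervals.

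Slc1 family genes all rose where they could be tested (4 of 4, with 2 too low). Over all tested genes 25.9% rose, and of those of at least 5 CPM 70.9% were called in either direction. Slc1a1, the neuronal glutamate carrier EAAC1, had 11.1, 10.6 and 9.62 CPM in the vehicle libraries and 18.7, 19.8 and 18.2 CPM in the Dox libraries. Every Dox library was above every vehicle library, and the log2 fold change was 0.86 ± 0.069 (SE, adjusted p = 8.0e-05). Slc1a3, the glutamate carrier GLAST best known from astrocytes, had 37.0, 39.8 and 38.4 CPM with vehicle and 46.9, 43.7 and 46.5 CPM with Dox, again without overlap (log2 fold change 0.25 ± 0.045 SE, adjusted p = 0.0033). Together the acidic amino acid carriers summed to 11.99 ± 0.313 RPKM with vehicle and 16.0 ± 0.240 RPKM with Dox (SD, n = 3 each), while the astrocyte carrier Slc1a2 had at most 3 counts in any library. Reads of Slc1a1 cannot be told from those of 4430402I18Rik, which lies on the opposite strand and shares 2631 exonic bases with it, because the strand setting of the counting is not given. That neighbour had 0.926 to 0.961 CPM with vehicle and 1.64 to 2.15 CPM with Dox.

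Both exchangers of small neutral amino acids rose. Slc1a5 had 254, 258 and 256 CPM with vehicle and 302, 296 and 282 CPM with Dox (log2 fold change 0.20 ± 0.030 SE, adjusted p = 0.0017). Slc1a4, which encodes the serine and alanine exchanger ASCT1, had 105.6, 105.1 and 103.4 CPM with vehicle and 113.8, 114.7 and 116.2 CPM with Dox (0.13 ± 0.024 SE, adjusted p = 0.0031). In both genes the groups were apart, and the rises were 14.6% and 9.75%. Of the 4 Slc1 genes, Slc1a1 passed the test against a 1.2-fold change, and Slc1a3, Slc1a4 and Slc1a5 did not.

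Of all tested genes 54.7% were called in either direction, and of those of at least 5 CPM 70.9%. In the Slc38 family, 4 of 7 tested genes rose, 1 fell and 2 did not pass. Its 3 carriers of system A, the sodium-coupled uptake route for alanine and glutamine, lie in a row on chromosome 15 and did not move together. Slc38a1, the glutamine carrier SNAT1 found in neurons, had 91.5, 97.6 and 94.9 CPM with vehicle and 125.0, 129.4 and 124.6 CPM with Dox (log2 fold change 0.42 ± 0.033 SE, adjusted p = 7.9e-05). Slc38a4, encoding SNAT4, had 183, 185 and 185 CPM with vehicle and 243, 244 and 245 CPM with Dox (0.40 ± 0.020 SE, adjusted p = 1.0e-05). In both genes every Dox library was above every vehicle library. The coefficient of variation of Slc38a4 was 0.757% among vehicle and 0.508% among Dox libraries, beside a rise of 32.4%. Of genes of 10 to 100 CPM, a range below Slc38a4, 0.0388% varied less in both groups. A spread this small is poorly measured by 3 libraries.

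Slc38a2 went the other way. It had 418, 439 and 434 CPM with vehicle and 376.5, 396.4 and 402.5 CPM with Dox, a log2 fold change of -0.14 ± 0.033 SE (adjusted p = 0.014). All Dox libraries were below all vehicle libraries, but the call depended on scaling: it was lost with upper-quartile scaling (-0.042, adjusted p = 0.31) and with an offset for transcript length (-0.027, adjusted p = 0.49). With no filter on low counts the change was nearly as large but did not pass (-0.13, adjusted p = 0.059), and it did not pass at an adjusted p under 0.01 or against a 1.2-fold change. The ratio within a library does not depend on scaling. Slc38a4 over Slc38a2, per length, was 0.518, 0.501 and 0.504 with vehicle and 0.764, 0.731 and 0.721 with Dox, and Slc38a1 over Slc38a2 was 0.140, 0.143 and 0.140 with vehicle and 0.213, 0.209 and 0.199 with Dox. Neither ratio overlapped between groups, which follows from the opposite directions of its genes, so the ratios are a description with no test. On GRCm38 the minus-strand genes span 96571418 to 96642913 (Slc38a1), 96687392 to 96699730 (Slc38a2) and 96994820 to 97055956 (Slc38a4).

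Of the other Slc38 genes, Slc38a9, a lysosomal membrane protein that reports arginine to mTORC1, had 7.79, 7.47 and 7.31 CPM with vehicle and 10.4, 9.54 and 9.33 CPM with Dox (log2 fold change 0.38 ± 0.062 SE, adjusted p = 0.0022). It shares 182 exonic bases with Gm47827 on the opposite strand. Slc38a6 rose by 0.25 ± 0.047 (SE, adjusted p = 0.0042), from 10.1 to 10.7 CPM across the vehicle libraries to 12.2 to 12.6 CPM across the Dox libraries. Slc38a7, which exports glutamine from lysosomes, did not pass (-0.087, 95% interval -0.193 to 0.0189), and its sign turned with upper-quartile scaling (0.0066). Slc38a10 did not pass either (-0.0060, 95% interval -0.141 to 0.129), with 140.4 to 160.0 CPM with vehicle and 148.0 to 158.0 CPM with Dox.

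**Figure D3:**
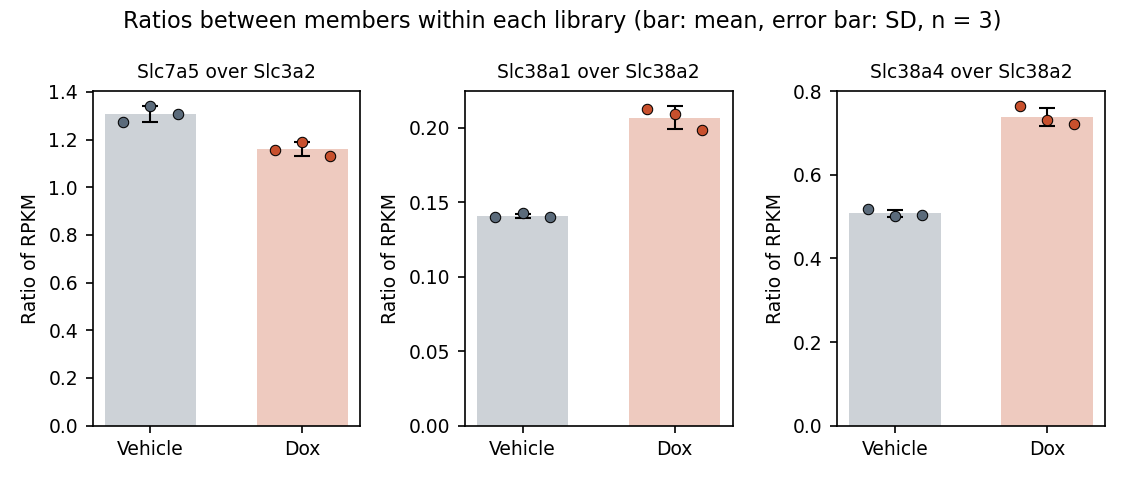
Ratio of length-scaled levels (RPKM) between members within each library, for Slc7a5 over Slc3a2, Slc38a1 over Slc38a2 and Slc38a4 over Slc38a2; bars are means, error bars SD and points the 3 libraries of a group. The first ratio is lower and the others are higher in every Dox library, with group means of 1.31 and 1.16, 0.141 and 0.207, and 0.508 and 0.738.

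The large neutral carrier and its heavy chain did not move together. Slc7a5 had 738.9, 746.7 and 744.4 CPM with vehicle and 682.8, 690.4 and 682.3 CPM with Dox, so that it fell by 7.83% (log2 fold change -0.12 ± 0.018 SE, adjusted p = 0.0015). The groups were well apart, but with upper-quartile scaling the call was lost (-0.024, adjusted p = 0.29). Slc3a2 had 463, 446 and 455 CPM with vehicle and 473, 464 and 482 CPM with Dox, and did not pass (0.056, 95% interval -0.00384 to 0.116, adjusted p = 0.10). It did pass with upper-quartile scaling (0.15, adjusted p = 0.0045) and among genes of at least 5 CPM (0.075, adjusted p = 0.032). Slc7a5 over Slc3a2, per length, was 1.28, 1.34 and 1.31 with vehicle and 1.16, 1.19 and 1.13 with Dox, a description of the same separate levels. Slc7a11, which shares the heavy chain Slc3a2 and is left out by the rule, had a log2 fold change of 0.027 (adjusted p = 0.40).

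LAT carriers that need no heavy chain were scarce. Slc43a1, encoding LAT3, had 13, 6 and 25 counts with vehicle and 37, 50 and 29 with Dox, or 0.345, 0.144 and 0.482 CPM against 0.869, 1.01 and 0.623 CPM. The groups were apart and the gene passed (1.33 ± 0.40 SE, adjusted p = 0.028), but its level was under the 1 CPM set for describing a member in full. The call was lost without vehicle replicate 1 (adjusted p = 0.069) and without Dox replicate 1 or 2 (0.074 and 0.089), and with the replicate number as a block (0.081). Without vehicle replicate 2 it held at 0.99 (adjusted p = 0.038). Slc43a2, encoding LAT4, did not pass (0.55, 95% interval -0.151 to 1.26). Slc43a3, the purine nucleobase carrier, lies next to Slc43a1 on chromosome 2 and fell: 24.7, 25.0 and 23.9 CPM with vehicle and 17.7, 17.3 and 16.7 CPM with Dox (-0.51 ± 0.043 SE, adjusted p = 1.0e-04). On GRCm38 Slc43a1 spans 84838850 to 84863594 and Slc43a3 84936579 to 84958509, both on the plus strand.

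Cationic carriers take up arginine and lysine. Slc7a3, which encodes CAT-3, had 2.84, 3.07 and 2.22 CPM with vehicle and 0.799, 1.42 and 1.29 CPM with Dox, or 107 to 128 counts against 34 to 70. It fell 2.30-fold (log2 fold change -1.20 ± 0.23 SE, adjusted p = 0.0047), and the groups did not overlap. The far more abundant Slc7a1, encoding CAT-1, did not pass (0.099, 95% interval 0.00999 to 0.189, adjusted p = 0.061). Its sum with Slc7a3 was 39.3 ± 1.95 RPKM with vehicle and 41.4 ± 0.337 RPKM with Dox (SD, n = 3 each), so the fall of Slc7a3 was small beside the level of Slc7a1. Slc7a1 was past the threshold without vehicle replicate 2 (0.14, adjusted p = 0.0036), its highest vehicle library, and with 4 other ways of analysis.

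The y+L exchangers, which trade cationic for neutral amino acids, were not called. Slc7a6 had 91.3 to 99.0 CPM with vehicle and 91.6 to 97.2 CPM with Dox, a log2 fold change of 0.0079 with a 95% interval from -0.0935 to 0.109. Slc7a7 had 0 to 26 counts with vehicle and 13 to 29 with Dox, and its interval from -1.20 to 2.53 leaves its change unmeasured at this depth. Slc7a6os, the neighbour that is no transporter, had 69.7, 64.7 and 65.6 CPM with vehicle and 78.5, 78.6 and 80.0 CPM with Dox (0.25 ± 0.036 SE, adjusted p = 0.0013). Without it, 17 members were called, 11 higher and 6 lower, beside 54.7% of all tested genes.

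Both expressed peptide carriers rose, beside 25.9% of all tested genes. Slc15a2 encodes PEPT2, the high-affinity carrier of di- and tripeptides found in brain and kidney. Its vehicle libraries held 133, 187 and 182 counts, or 3.53, 4.49 and 3.51 CPM, and its Dox libraries 572, 536 and 530 counts, or 13.4, 10.9 and 11.4 CPM. Every Dox library was more than 2-fold above every vehicle library, and the log2 fold change was 1.63 ± 0.13 SE (adjusted p = 7.8e-05). Per length it stayed a minor member, with 0.962 ± 0.141 RPKM with vehicle and 2.98 ± 0.340 RPKM with Dox (SD, n = 3 each). Slc15a4, which moves peptides and histidine out of endosomes and lysosomes, had 24.4, 28.5 and 27.0 CPM with vehicle and 31.8, 31.0 and 33.2 CPM with Dox (0.27 ± 0.066 SE, adjusted p = 0.014). It shares 427 exonic bases with Gm43474 on the opposite strand. Per length Slc15a4 stayed above Slc15a2, and the 5 peptide carriers summed to 10.7 ± 0.894 RPKM with vehicle and 14.7 ± 0.560 with Dox (SD, n = 3 each).

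**Figure D4:**
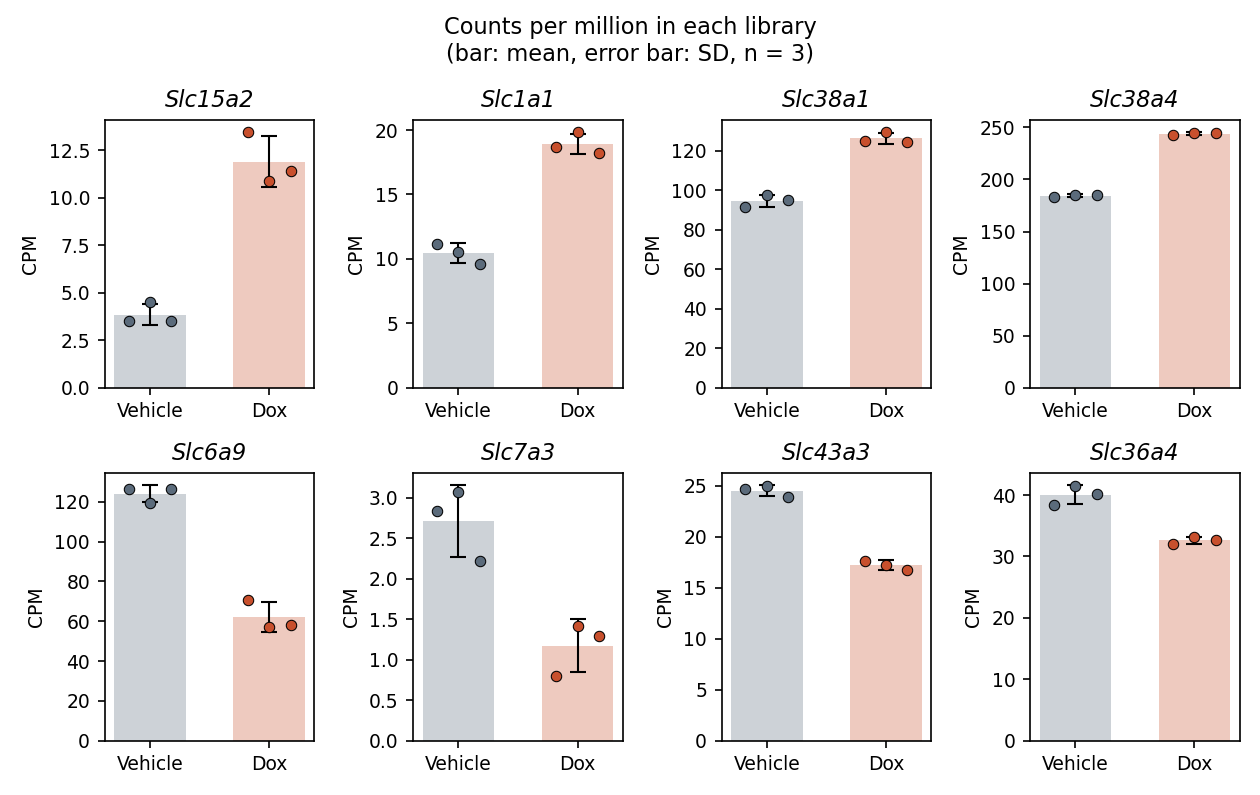
Level (CPM) in each library for 4 members that rose (Slc15a2, Slc1a1, Slc38a1, Slc38a4) and 4 that fell (Slc6a9, Slc7a3, Slc43a3, Slc36a4); bars are means, error bars SD and points the 3 libraries of a group, with axes from 0. In each panel the 3 Dox points lie wholly on one side of the 3 vehicle points.

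Of the 3 expressed Slc6 genes, 1 fell and 2 did not pass, where 28.8% of all tested genes fell. Slc6a9 encodes GlyT1, which takes up glycine and so limits its action at NMDA receptors. It had 126.6, 119.2 and 126.4 CPM with vehicle and 70.7, 57.3 and 58.3 CPM with Dox, so that it fell by 49.9% (log2 fold change -0.998 ± 0.085 SE, adjusted p = 1.0e-04). The groups lay far apart. Slc6a9 shares 1429 exonic bases with Ccdc24 on the opposite strand, and Ccdc24 fell as well, from 19.0 to 25.6 CPM across the vehicle libraries to 5.21 to 10.4 CPM across the Dox libraries. Without a known strand setting the counts of the pair cannot be told apart over those bases. With vehicle the mean of Ccdc24 was 22.1 CPM and that of Slc6a9 124.1 CPM, which does not bound the shared reads. Slc6a9 also shares 511 exonic bases with Gm17114 on the opposite strand. The part of these overlaps in the fall was not tested. Slc6a9 lies on chromosome 4, 117834506 to 117875198 (GRCm38, plus strand).

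Slc6a8, the creatine carrier, had 56.0, 66.4 and 82.8 CPM with vehicle and 53.1, 41.7 and 58.5 CPM with Dox. One Dox library was above the lowest vehicle library, and the gene did not pass (-0.42, 95% interval -0.846 to 0.00241, adjusted p = 0.085). It did with the DESeq2 Wald test (-0.42, adjusted p = 0.020) and without vehicle replicate 1 (-0.55, adjusted p = 0.041). Slc6a6, the taurine carrier, had 119.0 to 125.2 CPM with vehicle and 127.1 to 134.4 CPM with Dox and did not pass (0.082, 95% interval -0.000673 to 0.165, adjusted p = 0.086). It did with the replicate number as a block (adjusted p = 0.049), among genes of at least 5 CPM (0.037), with upper-quartile scaling (0.0030) and with the length offset (log2 fold change 0.24, adjusted p = 1.6e-04).

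The Slc36 carriers, which act partly at lysosomes, gave 1 fall and 1 gene that could not be read. Slc36a4 had 38.5, 41.5 and 40.2 CPM with vehicle and 32.0, 33.1 and 32.8 CPM with Dox (log2 fold change -0.30 ± 0.041 SE, adjusted p = 0.0010). Slc36a1, described in full because of its spread, had 33.4, 11.9 and 35.7 CPM with vehicle and 14.2, 45.9 and 12.5 CPM with Dox. Its libraries held either 11.9 to 14.2 CPM or 33.4 to 45.9 CPM, with libraries of both groups in each range. Its coefficient of variation was 48.8% with vehicle and 77.8% with Dox, where the median of 7730 genes of 10 to 100 CPM was 4.14% and 3.62%, and 99% of those genes varied less in both groups. The log2 fold change was -0.16 with a 95% interval from -1.66 to 1.35, and without Dox replicate 2 it was -1.02. Slc36a1 has 494 to 2267 counts in a library and no annotated exonic overlap.

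**Figure D5:**
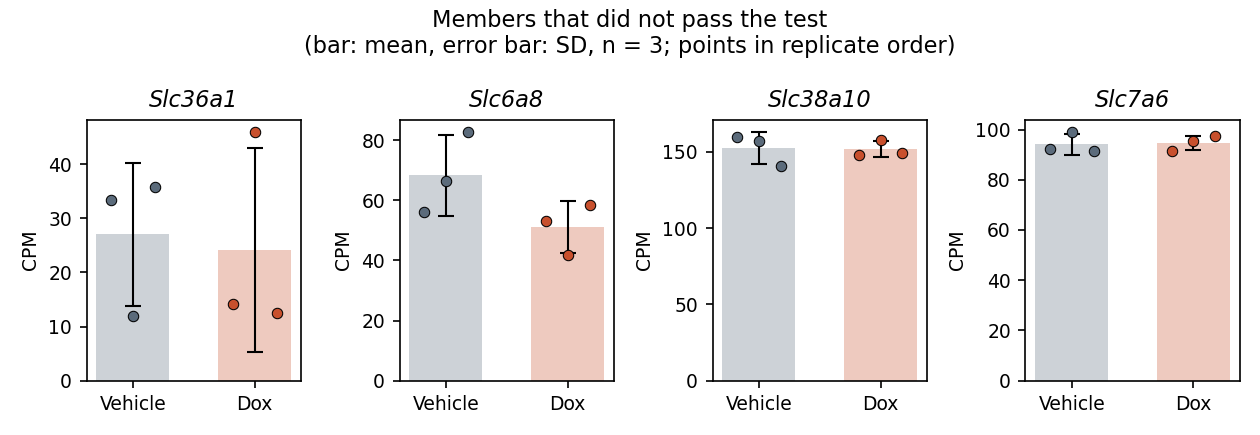
Level (CPM) in each library for 4 members that did not pass the test (Slc36a1, Slc6a8, Slc38a10, Slc7a6); bars are means, error bars SD and points the 3 libraries of a group, with axes from 0. Slc36a1 has low and high libraries in both groups, while Slc38a10 and Slc7a6 overlap with little spread.

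Genes that work with these carriers were read from lists of other amino acid carriers, enzymes, sensors and peptidases. Of 18 tested genes on the list of other amino acid carriers, 7 rose, 7 fell and 4 did not pass (77.8% called). That list also holds carriers of other compounds, such as Slc22a5. Ctns, which exports cystine from lysosomes, rose from 19.5 ± 0.470 to 39.7 ± 0.540 CPM, Sfxn3, a mitochondrial sideroflexin, fell from 75.7 ± 3.03 to 24.9 ± 0.607 CPM, and Slc22a5, the carnitine carrier, fell from 14.98 ± 0.223 to 5.36 ± 0.0831 CPM (SD, n = 3 each). Of 35 enzymes of amino acid synthesis and breakdown, 16 rose, 10 fell and 9 did not pass (74.3% called). Psph, the last step of serine synthesis, rose by 0.68 ± 0.029 on the log2 scale, while Pycrl, of proline synthesis, fell by 1.02 ± 0.048 and Bcat2, the mitochondrial branched-chain transaminase, by 1.29 ± 0.062 (SE). Their adjusted p values were 6.5e-06 to 1.0e-05 in edgeR's test.

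Of 36 tested genes on a list of amino acid sensing to mTORC1, 11 rose, 13 fell and 12 did not pass (66.7% called). The list is broader than sensors and also holds genes such as Mtor and Tfe3. The Rag GTPase genes Rraga and Rragc, whose products pair at the lysosome, went apart: Rraga rose from 191.5 ± 2.48 to 273.5 ± 2.26 CPM and Rragc fell from 139.4 ± 1.68 to 68.5 ± 4.12 CPM (SD, n = 3 each). Tfe3, a lysosomal gene regulator, fell by 0.87 ± 0.045 on the log2 scale (SE, adjusted p = 1.3e-05). Of 19 genes of the amino acid response, 5 rose, 6 fell and 8 did not pass (57.9% called). Chac1, which degrades glutathione, rose from 69.7 ± 0.288 to 140.8 ± 2.15 CPM (SD, n = 3 each), and Cth, of cysteine synthesis, and Eif2s1, an initiation factor subunit, rose by 0.55 ± 0.032 and 0.27 ± 0.022 on the log2 scale (SE). Of 22 peptidases, 11 rose, 8 fell and 3 did not pass (86.4% called). Npepps, a cytosolic aminopeptidase, fell 3.92-fold, and the oligopeptidase genes Thop1 and Nln had log2 fold changes of 0.66 ± 0.029 and -0.66 ± 0.035 (SE, adjusted p = 6.9e-06 and 1.4e-05). Median log2 fold changes of these lists ran from -0.0766 for the other carriers to 0.151 for the peptidases, beside 0.0178 over all tested genes. Each list held genes that rose and genes that fell, and the shares called ran from 57.9% to 86.4%, beside 54.7% of all tested genes and 70.9% of those of at least 5 CPM.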

How the data were processed

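The authors deposited raw read counts for each gene symbol, 1 column per library. A second table deposited by the authors compares the groups. Per the file headers it has, for each gene, a p-value with its adjusted form, a test statistic (score), a log2 fold change, the error of that change, and an averaged normalized signal. GRCm38, DESeq2, StringTie 1.3.3, HISAT2 2.1.0 and FastQC 0.11.3 are named in the submitters' processing notes, without their roles. Strand setting, annotation and the treatment of multiply matching reads: not given in the sources used here.

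Columns were matched to samples by the labels' descriptions. Low counts were removed with filterByExpr (18067 genes left), libraries were scaled by TMM to CPM, and all 6 were fitted with edgeR 4.0.16 (glmQLFit, glmQLFTest; R 4.3.3) without covariates, at an adjusted p under 0.05. Each standard error was taken as the size of the change divided by root F, and intervals are 95%. The members and lists were chosen with earlier results of these data known. Of the members too low to test, 1 is not reported by name here. Members given in every library are the 6 largest rises and up to 8 largest falls (there were 6) among members that passed the test with a mean of at least 1 CPM, the 5 highest per length, and Slc3a2, Slc7a5, Slc1a5, Slc38a2 and Slc38a9; of each related list, the 3 with the smallest p. Slc1a3, Slc1a4, Slc6a8, Slc36a1 and Slc43a1 were added after their values were seen. Lengths, positions and overlaps of at least 50 exonic bases are from GENCODE M21 (GRCm38), which may differ from the authors' annotation. Alternatives were DESeq2 1.42.0 and its size factors, upper-quartile scaling, limma-voom (limma 3.58.1), no filter, a mean of at least 5 CPM, a replicate block, an adjusted p under 0.01, glmTreat against 1.2-fold and leaving out each library. A length offset and counts without Slc7a6os or without members that share exons were added after seeing the data. No pair of replicates was alike within counting noise (11.1 to 13.8 chi-square units per degree of freedom).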

Additional observations from a re-analysis of the deposited data

How the results depend on the processing

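Of the 18 called members, none changed direction under any alternative run, and the calls of 7 (Slc15a2, Slc1a1, Slc38a1, Slc38a4, Slc43a3, Slc6a9 and Slc7a3) held in every alternative that tested them. Requiring more than a 1.2-fold change (glmTreat) left 7 members called, 4 higher and 3 lower, with 6032 of all genes, 2417 of them higher. By family it left 1 of the Slc15, Slc1, Slc43 and Slc7 genes each, 2 of the Slc38 genes and 0 of the Slc36 genes, and in the lists 5 genes of the amino acid response, 15 enzymes and 10 peptidases. The cause is the test's own margin.

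An adjusted p under 0.01 left 15 members called, 10 higher and 5 lower, with 43% of all tested genes. Among them were 1 Slc15 gene and 1 Slc43 gene, in place of 2 each. The families named here are those whose counts moved most for their size. With the stricter filter (5 CPM) 1 Slc3, 1 Slc43 and 2 Slc6 genes were called, and with upper-quartile scaling 1 Slc3 and 2 Slc6 genes. The DESeq2 Wald test and the length offset each called 2 Slc6 genes. Counts without 1 library ran from 1 to 2 for the Slc43 family, with 1 without vehicle replicate 1 or Dox replicate 1 or 2, and from 1 to 2 for the Slc6 family, with 2 without vehicle replicate 1. The median of the members was 0.211 with upper-quartile scaling, 0.21 with the length offset and 0.256 with no filter, where the 20 low members enter. The median of all genes was 0.0178 with TMM, 0.111 with upper-quartile scaling, 0.0253 with the length offset and 0.016 with no filter, so upper-quartile scaling moved members and all genes by about the same amount. The cause of the other moves was not tested. Of the 28 tested members 8 share exons with another gene. Without these, 14 members were called, 9 higher and 5 lower. Over all tested genes 54.7% were called, and of those of at least 5 CPM 70.9%.

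Among members that did not pass, 6 of 10 were never called. Slc38a10 changed sign with upper-quartile scaling (0.088), limma-voom (1.3e-04), no filter (0.0013), the stricter filter (0.013) and the length offset (0.098), and ran from -0.063 to 0.028 without 1 library. Slc38a7 changed sign with upper-quartile scaling (0.0066). Without 1 library Slc36a1 ran from -1.02 (Dox replicate 2) to 0.16 (Dox replicate 3), above 0 without vehicle replicate 1 or 3 or Dox replicate 1 or 3, and Slc7a6 from -0.015 to 0.043.

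The groups share replicate numbers. Same-numbered libraries' deviations correlated at 0.069, 0.052 and -0.094 over 14635 genes, and no pairing was assumed. With the replicate number as a block 18 members were called, 12 higher and 6 lower, with 1 Slc43 gene and 2 Slc6 genes, and 9699 of all genes. Libraries did not all correlate best with their own number.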
